A study of Mus musculus with 8 samples.

Results

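The Ms4a gene cluster was described in mouse blood monocytes (MCs) through 9 genes that were chosen by symbol, Ms4a3, Ms4a4a, Ms4a4b, Ms4a4c, Ms4a6b, Ms4a6c, Ms4a6d, Ms4a7 and Ms4a8a, and all 9 had a value among the 16486 genes measured. RNA-Seq was done on Ly6Chigh and Ly6Clow MCs sorted from peripheral blood as CD11b+Ly6G-Ly6Chigh and CD11b+Ly6G-Ly6Clow cells of male mice on normal chow, and the blood was collected at 20 to 22 weeks of age. Control (CT) mice were C57/BL6. T1DM mice were C57/BL6 that had been given intraperitoneal streptozotocin (STZ, a toxin of pancreatic beta cells) from the age of 8 weeks, on 5 days at a daily dose of 50 mg/kg. For T2DM, db/db mice were used, which are homozygous for a mutation of the leptin receptor, so that the mutation was present in every cell type and from birth. RNA of 5 mice per group was pooled, and 8 libraries were analysed here, 2 of each subset in CT mice and 1 of each subset in T1DM and in T2DM mice. The study's methods describe duplicates for the diabetic groups too, and the second diabetic libraries were not analysed here. The 2 CT libraries of a subset are duplicates of pooled RNA, so their spread need not include the spread between mice. Values are the deposited log2 expression values, a difference of 1 is a 2-fold difference, and because the table holds no read counts, the number of reads behind a single value is unknown, although the study's methods state a sequencing depth.

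Ms4a genes encode small tetraspan proteins of the plasma membrane and of endosomes, and many of them sit beside immune receptors and alter their signalling or uptake. The best known members of the family are Ms4a1, which encodes the B cell antigen CD20, and Ms4a2, which encodes the beta chain of the high-affinity IgE receptor of mast cells and basophils. Among the genes described here, Ms4a4a, Ms4a6d, Ms4a7 and Ms4a8a are known from macrophages, Ms4a4b from T and NK cells, and Ms4a3 from granulocyte-monocyte progenitors. Several of the genes are recent copies of each other, as Ms4a4b and Ms4a4c, and Ms4a6b, Ms4a6c and Ms4a6d. Ly6Chigh MCs are the classical MCs that enter inflamed tissue, and Ly6Clow MCs are the patrolling MCs of the vessel wall.

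In the GENCODE M21 annotation of mouse build GRCm38, which corresponds to the mm10 build of the submitters' processing notes, the family lay at chr19:10962293-11640851. This stretch of 678.6 kb held 35 annotated genes, 22 of them protein coding, and 19 had a value. From the low to the high coordinate the 9 genes were Ms4a8a (11067471 to 11081102, minus strand), Ms4a7 (11321039 to 11336146, minus), Ms4a4a (11375523 to 11392790, plus), Ms4a4c (11404770 to 11427246, plus), Ms4a4b (11443553 to 11467055, plus), Ms4a6c (11469366 to 11482192, plus), Ms4a6b (11516512 to 11531256, plus), Ms4a6d (11586604 to 11604849, minus) and Ms4a3 (11629496 to 11640851, minus).

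Promoter sequences of RefSeq (build GRCm38.p6, 250 bases before to 50 bases after a gene's start) were found for 8 of the 9 genes, all but Ms4a6d. The 4 below are shown because they are pairs of neighbouring copies, and the log2FC between the subsets had opposite signs in the first pair. They are written 5′ to 3′ on the plus strand, and capitals mark runs of at least 10 aligned bases that are identical between the 2 genes of a pair. The windows were chr19:11443308-11443607 for Ms4a4b, chr19:11407411-11407710 for Ms4a4c, chr19:11518309-11518608 for Ms4a6b and chr19:11469118-11469417 for Ms4a6c. The RefSeq starts need not be the GENCODE gene starts given above. The windows of Ms4a4c and Ms4a6b lie inside the GENCODE genes, which begin at 11404770 and 11516512.
Ms4a4b: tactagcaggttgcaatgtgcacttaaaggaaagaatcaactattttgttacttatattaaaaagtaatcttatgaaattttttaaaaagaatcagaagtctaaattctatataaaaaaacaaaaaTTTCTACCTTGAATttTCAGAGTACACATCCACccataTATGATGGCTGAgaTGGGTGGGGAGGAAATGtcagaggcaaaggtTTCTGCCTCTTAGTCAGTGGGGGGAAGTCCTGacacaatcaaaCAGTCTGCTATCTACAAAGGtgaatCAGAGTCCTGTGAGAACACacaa
Ms4a4c: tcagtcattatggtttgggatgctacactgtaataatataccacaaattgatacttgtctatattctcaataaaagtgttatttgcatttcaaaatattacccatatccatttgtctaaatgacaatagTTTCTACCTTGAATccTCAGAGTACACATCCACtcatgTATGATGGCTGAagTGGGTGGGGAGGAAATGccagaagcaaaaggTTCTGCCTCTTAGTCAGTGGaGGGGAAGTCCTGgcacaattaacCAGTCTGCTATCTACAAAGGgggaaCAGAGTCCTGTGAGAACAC
Ms4a6b: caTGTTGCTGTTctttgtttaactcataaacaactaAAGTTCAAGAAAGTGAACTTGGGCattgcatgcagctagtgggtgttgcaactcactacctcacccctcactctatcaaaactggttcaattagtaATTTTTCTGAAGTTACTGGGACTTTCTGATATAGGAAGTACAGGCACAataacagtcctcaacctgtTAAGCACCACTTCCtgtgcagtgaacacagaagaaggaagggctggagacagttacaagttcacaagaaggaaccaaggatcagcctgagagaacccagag
Ms4a6c: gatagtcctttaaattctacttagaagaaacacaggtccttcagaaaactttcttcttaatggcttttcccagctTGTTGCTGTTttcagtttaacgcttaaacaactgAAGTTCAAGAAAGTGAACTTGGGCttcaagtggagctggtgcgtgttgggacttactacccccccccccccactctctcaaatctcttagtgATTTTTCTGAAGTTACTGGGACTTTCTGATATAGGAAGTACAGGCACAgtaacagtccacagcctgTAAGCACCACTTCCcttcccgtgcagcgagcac

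The promoters of Ms4a4b and Ms4a4c aligned over 297 columns with 226 identical bases (76.1%), and 131 of these bases lay in 8 capital runs of up to 20 bases. Those of Ms4a6b and Ms4a6c aligned over 233 columns with 192 identical bases (82.4%), and 96 of these lay in 4 capital runs, the longest of 48 bases. Motifs were searched on both strands, and all of them are descriptions of letters only. The core of the interferon-stimulated response element, GAAA followed by 2 bases of any kind and GAAA again, was found in 0 of the 8 genes, against 3.99% of 27025 mouse genes with windows of the same length; a gene with several starts, as Ms4a7, has several windows and counts if any holds the motif. The PU.1 motif GAGGAAGT was also in 0 of the 8, and in 3.69% of all genes. Its core GAGGAA, which is contained in the longer motif and was searched after it, was in 4 of the 8, those of Ms4a7, Ms4a4c, Ms4a4b and Ms4a3, against 31.25% of all genes. In the Ms4a4b and Ms4a4c promoters it began 64 and 61 bases before the start, within the capital run TGGGTGGGGAGGAAATG.

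The copies also share transcript sequence, which limits how far their values can be separated. Of the distinct 31-base sequences in the annotated transcripts, 17.12% of those of Ms4a4c occurred in other genes, and Ms4a4b shared 227 of them. In Ms4a6c 58.12% were shared, of which 1031 were with BE692007, a transcript on the opposite strand that overlaps it, and 281 with Ms4a6b. The share was 8.11% in Ms4a6d, 7.9% in Ms4a6b, 5.46% in Ms4a4b, 1.42% in Ms4a7, 1.22% in Ms4a3, 0.68% in Ms4a8a and 0% in Ms4a4a. Ms4a4c and Ms4a6b are also overlapped on the opposite strand by the pseudogene Gm5692 and by Gm19261. Whether the counting used strand is not given in the sources used here, so reads of such pairs cannot be told apart.

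The sorted subsets carried the markers of their labels in part, and both also carried genes of lymphocytes. Of 6 classical MC markers (such as Ly6c2, Ccr2 and Vcan), 5 were higher in Ly6Chigh MCs over all mouse groups, with a median log2FC of 4.57, and of 9 nonclassical markers (such as Nr4a1, Treml4 and Ace) 4 were lower, with a median of -1.18. All 10 B cell markers were lower in Ly6Chigh MCs, with a median log2FC of -3.99, and their summed linear values were 314 to 667 in Ly6Chigh and 5020 to 5920 in Ly6Clow libraries. Of 12 NK cell markers 11 were lower in Ly6Chigh MCs, with a median of -2.73, and of 12 T cell markers 1 was. The part of these cells in the subset differences of the Ms4a genes was not tested. In bulk samples such as these, fewer cells of a type and less RNA per cell cannot be told apart.

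Most Ms4a genes were expressed more in Ly6Chigh than in Ly6Clow MCs, and the same 7 of the 9 differed more than 2-fold in each mouse group. Over all 8 libraries, with mouse group as a covariate, 7 of the 9 genes were higher in Ly6Chigh MCs and 0 were lower at an adjusted p below 0.01 and an absolute log2FC above 1 (limma over all genes, Benjamini-Hochberg), while 12.1% of all genes were called, 5.37% as higher. The median log2FC was 2.06 over the 9 genes and -0.082 over all genes. In the same 7 genes all 4 Ly6Chigh libraries lay above all 4 Ly6Clow libraries, a separation that 16.4% of all genes had. The 7 were Ms4a4a, Ms4a4c, Ms4a6b, Ms4a6c, Ms4a6d, Ms4a7 and Ms4a8a. The other 2, Ms4a4b and Ms4a3, had negative log2FC and were not called. The 9 genes were chosen with earlier results of these data known, so the shares of all genes are given as a description.

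**Figure D1:**
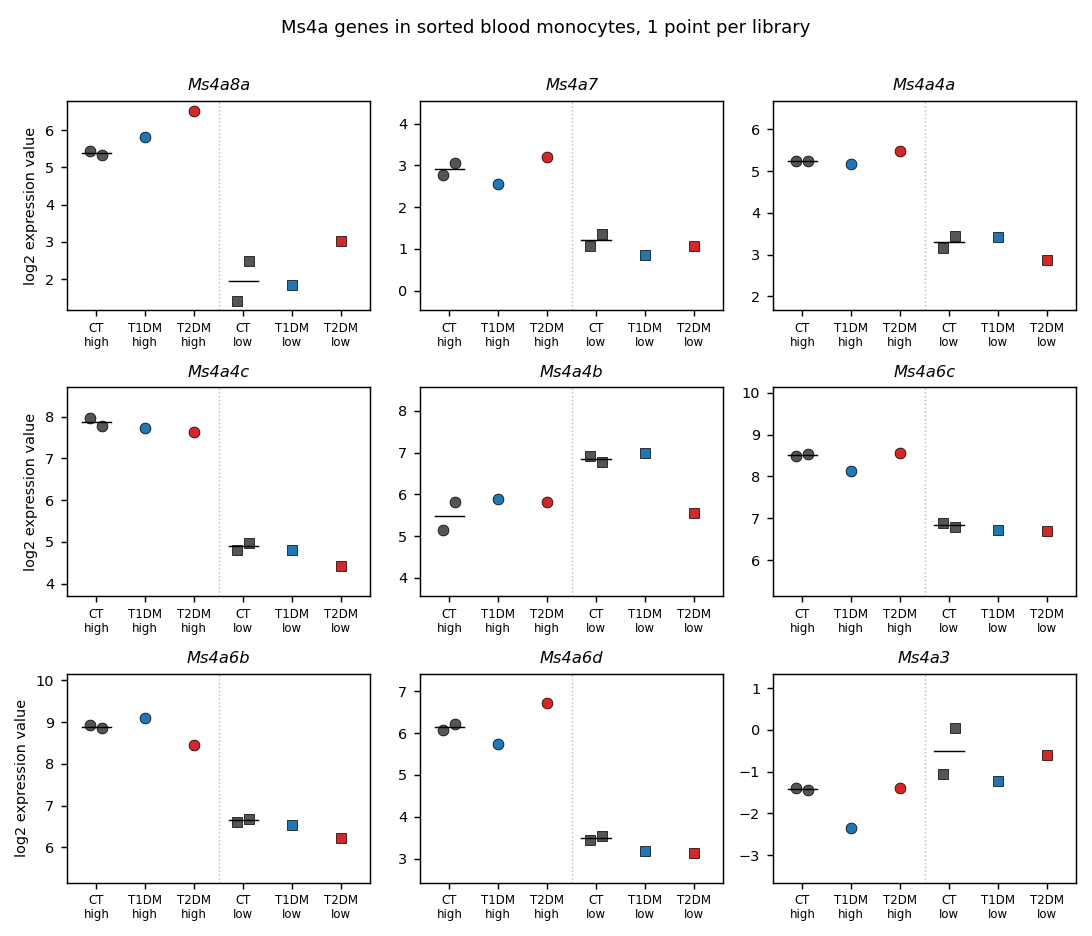
Log2 expression value of each of the 9 genes in the 8 libraries, 1 panel a gene in chromosomal order, with circles for Ly6Chigh and squares for Ly6Clow MCs; grey is CT with a line at the mean of the 2 libraries, blue is T1DM and red is T2DM, and each panel has its own axis range. In 7 panels all Ly6Chigh points lie above all Ly6Clow points, whereas in Ms4a4b the T2DM Ly6Clow library, at 5.56, falls among the Ly6Chigh libraries.

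Ms4a8a, a gene of macrophages, had the largest log2FC between the subsets among the 9 genes. Its log2 values were 5.44 and 5.33 in CT mice, 5.82 in T1DM and 6.52 in T2DM Ly6Chigh MCs, and 1.42 and 2.48 in CT mice, 1.83 in T1DM and 3.03 in T2DM Ly6Clow MCs. The T2DM library was the highest in both subsets, and the subsets did not overlap. The pooled log2FC was 3.59 (SE 0.25, adjusted p 1.48e-05), a 12.0-fold difference. In CT mice alone the log2FC was 3.43 (SE 0.42, adjusted p 0.0198), above the limit of 0.01, and the 2 CT Ly6Clow libraries differed by 1.06.

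Ms4a4c showed the next largest difference and little change between mouse groups. Its log2 values were 7.97 and 7.77 in CT mice, 7.72 in T1DM and 7.64 in T2DM Ly6Chigh MCs, and 4.81 and 4.97 in CT mice, 4.80 in T1DM and 4.42 in T2DM Ly6Clow MCs. The gap between the lowest Ly6Chigh and the highest Ly6Clow library was 2.66, many times the CT replicate differences of 0.20 and 0.16. The pooled log2FC was 3.02 (SE 0.11, adjusted p 8e-07), an 8.13-fold difference.

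The 3 Ms4a6 copies were all higher in Ly6Chigh MCs, Ms4a6d by the largest amount. Ms4a6d, which has been described as a brake on inflammasome signalling in macrophages, had log2 values of 6.07 and 6.21 in CT mice, 5.74 in T1DM and 6.72 in T2DM Ly6Chigh MCs, and of 3.44 and 3.55 in CT mice, 3.19 in T1DM and 3.13 in T2DM Ly6Clow MCs. Its pooled log2FC was 2.86 (SE 0.19, adjusted p 1.29e-05), and the difference within T2DM, 3.60, was larger than those within CT, 2.64, and T1DM, 2.56. Ms4a6b had 8.93 and 8.85 in CT mice, 9.10 in T1DM and 8.45 in T2DM Ly6Chigh MCs, and 6.61 and 6.69 in CT mice, 6.54 in T1DM and 6.22 in T2DM Ly6Clow MCs, with a pooled log2FC of 2.32 (SE 0.09, adjusted p 9.74e-07). Both of these genes separated the subsets by more than any difference between mouse groups. Ms4a6c had 8.50 and 8.54 in CT mice, 8.13 in T1DM and 8.57 in T2DM Ly6Chigh MCs, and 6.89 and 6.80 in CT mice, 6.71 in T1DM and 6.69 in T2DM Ly6Clow MCs, with a pooled log2FC of 1.66 (SE 0.09, adjusted p 5.71e-06), the smallest of the 7. When the linear values of the 3 copies were summed before the test, the log2FC was 2.07. BE692007 is not part of this sum, and Ms4a6d, with the lowest values of the 3, adds little to it.

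Ms4a4a and Ms4a7 are surface markers of tissue macrophages, and Ms4a4a associates with the beta-glucan receptor dectin-1. Ms4a4a had log2 values of 5.24 and 5.25 in CT mice, 5.16 in T1DM and 5.47 in T2DM Ly6Chigh MCs, and of 3.15 and 3.44 in CT mice, 3.42 in T1DM and 2.87 in T2DM Ly6Clow MCs. Its pooled log2FC was 2.06 (SE 0.18, adjusted p 5.86e-05), and no Ly6Clow library came within 1.73 of a Ly6Chigh library. Ms4a7 was low throughout, with 2.76 and 3.05 in CT mice, 2.55 in T1DM and 3.21 in T2DM Ly6Chigh MCs, and 1.06 and 1.36 in CT mice, 0.86 in T1DM and 1.06 in T2DM Ly6Clow MCs. Its pooled log2FC was 1.81 (SE 0.27, adjusted p 0.000954), with the widest interval of the 7 genes, 1.21 to 2.41. Genes at this level varied more between replicates, the median difference of the CT Ly6Chigh libraries being 0.328 for mean log2 values from 2 to 4 and 0.106 from 6 to 10.

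Ms4a4b, a gene of T and NK cells, had the opposite sign. Its log2 values were 5.14 and 5.83 in CT mice, 5.89 in T1DM and 5.82 in T2DM Ly6Chigh MCs, and 6.93 and 6.78 in CT mice, 6.98 in T1DM and 5.56 in T2DM Ly6Clow MCs. The CT and T1DM Ly6Clow libraries lay above all Ly6Chigh libraries, and the T2DM Ly6Clow library lay within their range. The pooled log2FC was -0.89 (SE 0.27, adjusted p 0.0355), which was not called, and without the T2DM libraries it was -1.28 and was called. Summing Ms4a4b with its copy Ms4a4c turned the sign, to a log2FC of 1.15 (SE 0.17, adjusted p 0.000903). Ms4a4b made up 12.3% and 20.7% of the summed linear value of the pair in CT Ly6Chigh MCs and 81.3% and 77.8% in CT Ly6Clow MCs. In T1DM the share went from 21.9% in Ly6Chigh to 82.0% in Ly6Clow MCs, and in T2DM from 22.1% to 68.8%.

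Ms4a3, whose promoter is active in granulocyte-monocyte progenitors, was near the low end of the values in every library. Its log2 values were -1.40 and -1.43 in CT mice, -2.36 in T1DM and -1.38 in T2DM Ly6Chigh MCs, and -1.06 and 0.05 in CT mice, -1.22 in T1DM and -0.60 in T2DM Ly6Clow MCs. All Ly6Clow libraries lay above all Ly6Chigh libraries, which 16.3% of genes did, but by a gap of 0.16, while the 2 CT Ly6Clow libraries differed by 1.10. The pooled log2FC was -0.93 (SE 0.42, adjusted p 0.121) and was not called. It was the only gene of the 9 below a mean log2 value of 1.

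Within CT mice, the only group with replicates among the libraries analysed, 4 of the 9 genes were called, all higher in Ly6Chigh MCs, against 3.52% of all genes and 2.1% called as higher. These were Ms4a4c (log2FC 2.98, SE 0.12, adjusted p 0.00455), Ms4a6d (2.64, SE 0.12, adjusted p 0.00513), Ms4a6b (2.24, SE 0.06, adjusted p 0.00321) and Ms4a6c (1.68, SE 0.06, adjusted p 0.00385). Ms4a4a had a log2FC of 1.95 at an adjusted p of 0.0103, Ms4a7 of 1.70 at 0.0297, Ms4a4b of -1.37 at 0.0481 and Ms4a3 of -0.91 at 0.263. This fit had 2 residual degrees of freedom, and when any 1 of the 4 CT libraries was left out, 0 members and 0 of all genes were called, with 4651 to 5241 genes at an unadjusted p below 0.05 in limma.

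Within the diabetic groups the subset differences were of similar size, without a test because each rests on 1 library per subset. In T1DM MCs 7 genes were above 1, from 1.42 in Ms4a6c to 3.98 in Ms4a8a, and 2 were below -1, Ms4a4b at -1.10 and Ms4a3 at -1.14; of all genes 11.0% were above 1 and 16.8% below -1. The Ms4a3 value was between -0.54 and -0.26 after quantile normalization or adding 1 on the linear scale. In T2DM MCs the same 7 genes were above 1, from 1.88 in Ms4a6c to 3.60 in Ms4a6d, Ms4a4b was at 0.26 and Ms4a3 at -0.78; of all genes 11.3% were above 1 and 17.8% below -1. The T2DM value of Ms4a3 was between -0.26 and 0.11 under the same alternatives, so its sign depended on the scale. A test of whether the subset difference differed between the diabetic groups together and CT called 0 members and 0 of all genes (limma; 0 members and 1084 genes, 6.58%, at an unadjusted p below 0.05). The 95% interval of that difference was -0.48 to 0.67 for Ms4a4c, -0.56 to 0.87 for Ms4a6b and -1.33 to 1.93 for Ms4a8a, so a difference in Ms4a8a had to be larger than in the other 2 genes to be detectable with these libraries.

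**Figure D2:**
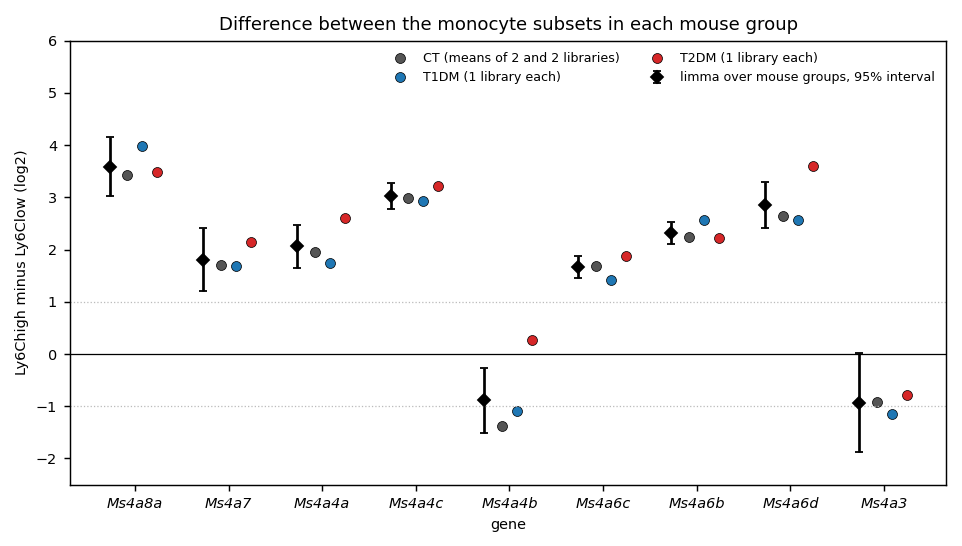
Ly6Chigh minus Ly6Clow in log2 units for each gene, with black diamonds for the limma estimate over mouse groups and its 95% interval, and points for the difference within CT (grey, means of 2 libraries each), T1DM (blue) and T2DM (red, 1 library each); dotted lines mark 1 and -1. The points of 7 genes lie above 1 in every mouse group, and Ms4a4b moves from -1.37 in CT and -1.10 in T1DM to 0.26 in T2DM.

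The comparisons of diabetic with CT mice carry limits that the subset comparison does not. A NextSeq 500 was used for the CT libraries only and a HiSeq 4000 for the diabetic ones, and therefore the effect of the sequencer and that of diabetes cannot be told apart. The deposited values of CT lay close to midway between T1DM and T2DM, since over genes the SD of the CT mean minus the mean of the diabetic groups was 0.272 and that of T2DM minus T1DM was 0.743, and T1DM and T2DM lay on opposite sides of CT in 58.9% of all genes and in 5 of the 9. Whether the values were adjusted between sequencers is not given in the sources used here. T2DM against T1DM was run on 1 sequencer, and the models differ in genotype and in treatment.

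None of the 9 Ms4a genes passed the test between mouse groups. For T2DM against T1DM over both subsets 0 of the 9 were called, against 0.588% of all genes, and 2 of the 9 were at an unadjusted p below 0.05, against 14.3% of all genes (limma). For T2DM against CT 0 were called (0.297% of all genes) and 3 were at an unadjusted p below 0.05 (8.94%). For T1DM against CT 0 members and 0 of all genes were called, and 1 member was at an unadjusted p below 0.05 (3.34% of all genes). The 3 comparisons use the same libraries in pairs, so their values are not independent.

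Ms4a8a had the largest positive values in T2DM. It was 1.14 above the CT mean in Ly6Chigh MCs and 1.08 above it in Ly6Clow MCs, where 5.96% and 5.09% of all genes were more than 1 above. In Ly6Clow MCs the T2DM value was 0.56 above the higher of the CT libraries, and leaving out the lower one brings the difference under 1. Over both subsets the log2FC against CT was 1.11 (SE 0.30, adjusted p 0.205) and against T1DM 0.95 (SE 0.35, adjusted p 0.258). Of 6 neutrophil markers 4 were higher than in CT in T2DM Ly6Chigh MCs (median 1.57) and 6 in T2DM Ly6Clow MCs (median 1.71), while Ly6g and Camp had no value. In T1DM 4 of the 6 were also higher than in CT in Ly6Chigh MCs (median 0.64), and 2 were in Ly6Clow MCs (median -0.43). Mmp8 was higher in Ly6Chigh than in Ly6Clow MCs already in CT mice, at 7.28 and 7.15 against 2.08 and 2.09. Mmp8 (9.70) and Lcn2 (8.71) had the highest log2 values of the list in T2DM Ly6Chigh MCs, while Retnlg had a difference of -3.27 and Cxcr2 of -0.14 from CT there. Their summed linear value was 160 to 180 in the other Ly6Chigh libraries and 1270 in T2DM, and 26.2 to 31.5 and 101 in the same order in Ly6Clow MCs. Of 4 myeloid progenitor markers with a value, 3 were higher than in CT in each subset of T2DM. Of the 6 classical MC markers 5 were higher than in CT in T2DM Ly6Chigh MCs (median 0.94) and 6 in T2DM Ly6Clow MCs (median 0.42). The part of these lists in the Ms4a8a values was not tested.

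Ms4a6b had the smallest unadjusted p among the 9 genes for T2DM against CT and against T1DM, and it was lower in T2DM in each subset. It was 0.45 below the CT mean in Ly6Chigh and 0.43 below it in Ly6Clow MCs, outside the CT libraries by 0.41 and 0.39. Over both subsets its log2FC was -0.44 against CT (SE 0.11, adjusted p 0.163) and -0.49 against T1DM (SE 0.13, adjusted p 0.112). Ms4a4c was also lower in both subsets of T2DM, by 0.23 and 0.47 below the CT mean (log2FC -0.35, SE 0.13, adjusted p 0.428). None of these passed the correction over all genes.

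Ms4a4b stood apart in T2DM Ly6Clow MCs, where it was 1.30 below the CT mean, a fall past 1 that 5.68% of all genes had. In Ly6Chigh MCs of T2DM it was 0.33 above the CT mean and between the 2 CT libraries. Over both subsets the log2FC against CT was -0.48 (SE 0.34, adjusted p 0.824). All 12 NK cell markers were lower in T2DM than in CT Ly6Clow MCs, with a median of -2.25, and their summed linear value was 995 and 971 in CT mice, 1460 in T1DM and 252 in T2DM. The 12 NK cell markers were also lower in T2DM Ly6Chigh MCs, with a median of -1.66 and sums of 142 and 155 in CT and 47.8 in T2DM, where Ms4a4b was not lower. Of the 12 T cell markers 6 were lower and 6 higher in T2DM Ly6Clow MCs, with a median of 0.13. The most abundant genes of these lists, Gzma, Il2rb and Klrk1 of NK cells and Lck, Cd28 and Cd8a of T cells, had a value in every library, and the part of NK cells in the Ms4a4b values was not tested.

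**Figure D3:**
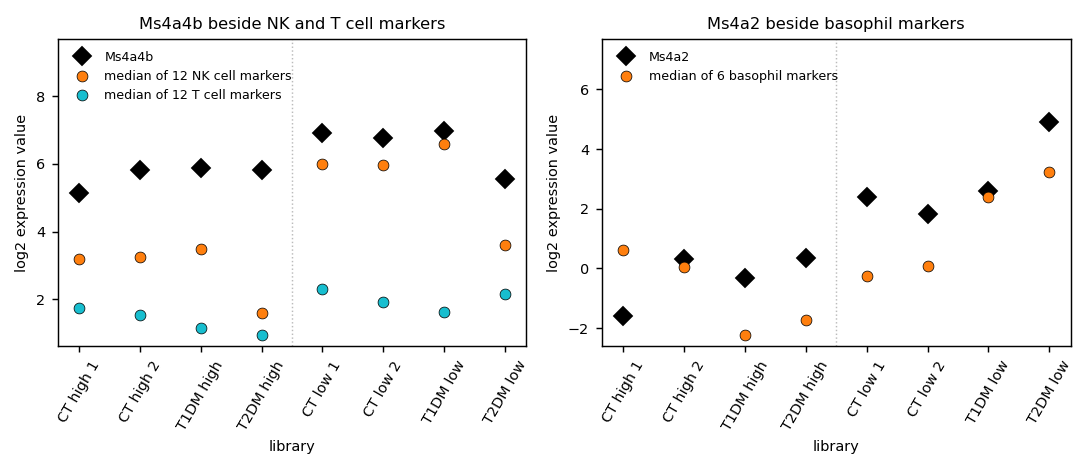
Log2 values of Ms4a4b with the medians of 12 NK cell and 12 T cell markers (left), and of Ms4a2 with the median of 6 basophil markers (right), in each of the 8 libraries, where high and low stand for Ly6Chigh and Ly6Clow MCs. In T2DM Ly6Clow MCs Ms4a4b (5.56) and the NK cell median (3.59) are below the other Ly6Clow libraries, and Ms4a2 (4.92) and the basophil median (3.24) are above them.

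The other genes stayed within 1 of the CT mean in every diabetic library. Ms4a6d was 0.58 above CT in T2DM Ly6Chigh MCs and 0.40 below it in T1DM, and it was 0.37 and 0.31 below CT in T2DM and T1DM Ly6Clow MCs. Ms4a6c was 0.39 below CT in T1DM Ly6Chigh MCs, and its log2FC over both subsets was -0.27 (SE 0.12, adjusted p 1.0). Ms4a4a was within 0.42 and Ms4a7 within 0.36 of the CT mean in every diabetic library. Ms4a3 was 0.95 and 0.71 below CT in T1DM Ly6Chigh and Ly6Clow MCs, at a level where replicates differed by up to 1.10. In T1DM no gene of the 9 was more than 1 from the CT mean, while 10.1% of all genes were in Ly6Chigh and 8.81% in Ly6Clow MCs.

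**Figure D4:**
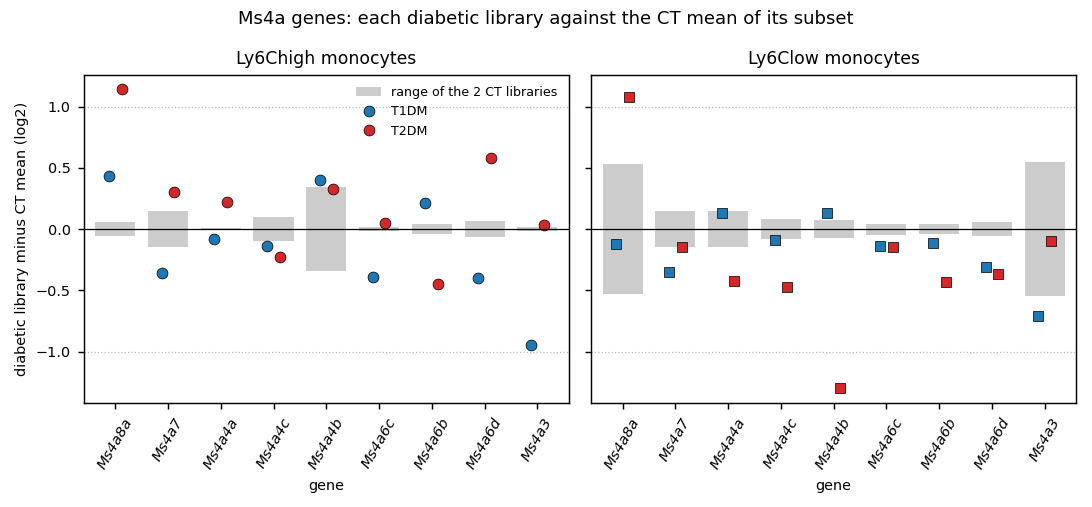
Log2 difference of the T1DM (blue) and T2DM (red) library from the CT mean for each gene, in Ly6Chigh (left) and Ly6Clow MCs (right); grey boxes span the 2 CT libraries and dotted lines mark 1 and -1. Only Ms4a8a in T2DM (1.14 and 1.08) and Ms4a4b in T2DM Ly6Clow MCs (-1.30) lie past 1.

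Of 15 other genes of the family, 7 had a value, and those known from other lineages had the reverse subset pattern. Ms4a1 (CD20, chr19:11249675-11266241, minus strand) lies between the myeloid genes of the cluster, with log2 values of 3.21 and 3.69 in CT mice, 3.82 in T1DM and 2.66 in T2DM Ly6Chigh MCs, and of 8.50 and 8.50 in CT mice, 8.46 in T1DM and 8.84 in T2DM Ly6Clow MCs. Its pooled log2FC was -5.23 (SE 0.23, adjusted p 1.51e-06), and it moved with the B cell markers given above. Ms4a2 (chr19:11615523-11623719, minus strand), between Ms4a6d and Ms4a3, had -1.58 and 0.31 in CT mice, -0.32 in T1DM and 0.36 in T2DM Ly6Chigh MCs, and 2.38 and 1.84 in CT mice, 2.60 in T1DM and 4.92 in T2DM Ly6Clow MCs. Its pooled log2FC was -3.24 (SE 0.51, adjusted p 0.00134), and the T2DM Ly6Clow library was the highest. The 6 basophil markers were all higher than in CT in T2DM Ly6Clow MCs (median 3.20) and in T1DM Ly6Clow MCs (median 2.03), and their summed linear value was 16.2 in the lower CT library, 45.3 in T1DM and 109 in T2DM. Ms4a2 was 2.81 and 0.5 above the CT mean in these libraries. In T2DM Ly6Chigh MCs all 6 markers were below CT (median -1.5), while Ms4a2 was 1.0 above it. Between the subsets of CT mice the markers had a median log2FC of 0.01 with 0 called, and Ms4a2 had -2.74. The part of the basophil markers in the Ms4a2 values was not tested. Ms4a4d, Ms4a12 and Ms4a15 were low and not called.

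Tmem176a and Tmem176b, related membrane proteins encoded elsewhere, were higher in Ly6Chigh MCs, with pooled log2FC of 1.09 (SE 0.18, adjusted p 0.00169) and 1.75 (SE 0.19, adjusted p 0.000157). Within the cluster, Gm8369, a gene between Ms4a6c and Ms4a6b that was added after its position was seen, had a pooled log2FC of -0.87 (SE 0.14, adjusted p 0.00138), short of the limit of 1. Among the genes with a value, Ms4a6d, called higher in Ly6Chigh MCs, and Ms4a2, called lower, were neighbours.

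**Figure D5:**
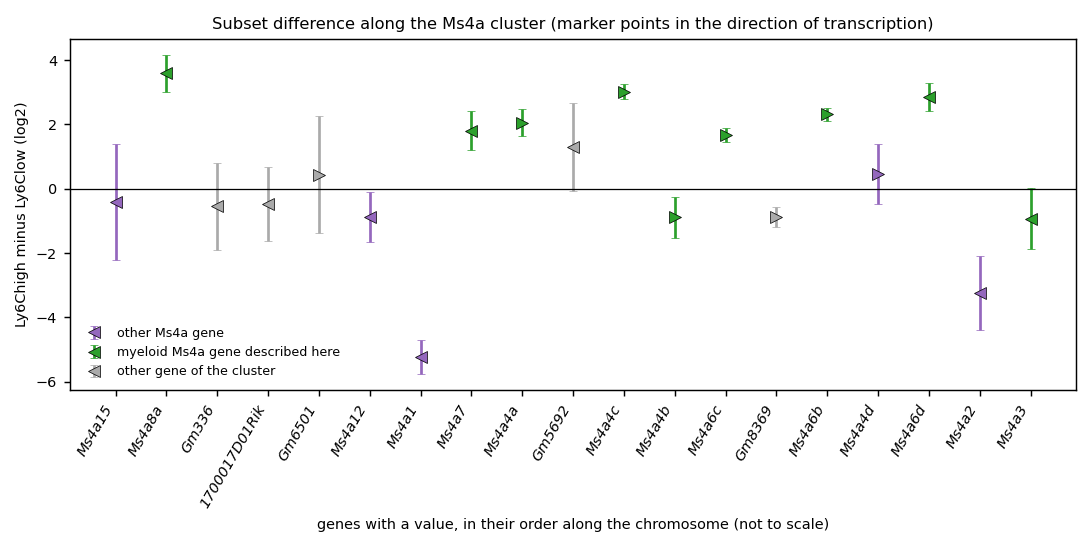
Ly6Chigh minus Ly6Clow over mouse groups (limma log2FC with 95% interval) for the 19 genes of the cluster with a value, in chromosomal order and not to scale; green marks the 9 myeloid genes, purple other Ms4a genes and grey other genes, and triangles point in the direction of transcription. Positive and negative values are interleaved along the cluster, with Ms4a1 at -5.23 between Ms4a8a at 3.59 and Ms4a7 at 1.81.

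Proteins that work with Ms4a proteins followed the subsets in part. Of 8 such genes, 3 were called higher and 1 lower in Ly6Chigh MCs over the mouse groups. Clec7a, which encodes dectin-1, had log2 values of 7.98 and 7.98 in CT mice, 8.07 in T1DM and 7.73 in T2DM Ly6Chigh MCs, and of 5.55 and 5.25 in CT mice, 5.24 in T1DM and 5.91 in T2DM Ly6Clow MCs, and a log2FC of 2.45 (SE 0.16, adjusted p 1.18e-05). Trem2, a lipid receptor of macrophages and microglia, had a log2FC of 3.29 (SE 0.31, adjusted p 8.55e-05), and its adaptor Tyrobp of 1.47 (SE 0.07, adjusted p 2.83e-06). Both separated all Ly6Chigh from all Ly6Clow libraries. Tnfrsf18 (GITR), a receptor of T cells that associates with Ms4a4b, was lower in Ly6Chigh MCs by a log2FC of -3.02 (SE 0.65, adjusted p 0.00715), and its 2 CT Ly6Chigh libraries differed, at 2.20 and -1.03. Fcer1g (log2FC 0.99) and Csf2rb (0.64) had adjusted p of 3.58e-05 and 0.000912 but stayed under the limit of 1, and Cdkn3 (0.19) and Vsig4 (-1.13) did not pass the test.

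Interferon-stimulated genes, given because several Ms4a genes are known to respond to interferon, were set beside them. Of 16 of them 12 were higher in Ly6Chigh MCs over the mouse groups, with a median log2FC of 1.81. In T2DM Ly6Chigh MCs all 16 were below the CT mean, with a median of -2.58. The 9 Ms4a genes had a median of 0.22 there, and 7 of them were above CT, Ms4a3 by 0.03 and Ms4a6c by 0.05. The other 2 were below CT, Ms4a6b with a difference of -0.45 and Ms4a4c of -0.23. In T2DM Ly6Clow MCs these genes had differences of -0.43 and -0.47. In T2DM Ly6Clow MCs both sets were mostly below CT, 14 of the 16 (median -0.82) and 8 of the 9 Ms4a genes (median -0.37). A link between the sets was not tested.

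For 7 of the genes, those with the most similar pattern over the 8 libraries were sought among the 5228 genes whose log2 values averaged at least 5, as a description in which all points share their libraries. They were Actb for Ms4a4c (Pearson r 0.9974), Npc2 for Ms4a6b (0.9977), Clta for Ms4a6d (0.9972), Ap2a2 for Ms4a8a (0.9967), Dr1 for Ms4a4a (0.9962), Edf1 for Ms4a7 (0.9927) and Arsb for Ms4a4b (0.9742). With each subset's mean subtracted, the closest were Ap2a2 for Ms4a8a (0.9776), Cotl1 for Ms4a6d (0.9831), Tle4 for Ms4a4b (0.9791), Setd3 for Ms4a4c (0.9727), Eef1d for Ms4a6b (0.9671), Tmed2 for Ms4a7 (0.9647) and Tgoln1 for Ms4a4a (0.9602). Ap2a2 was closest to Ms4a8a in both searches.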

How the data were processed

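MC subsets were sorted by flow cytometry and RNA of 5 mice per group was pooled. Per the study's methods, the authors quantified transcripts with Kallisto (version 0.45), summed them to gene counts and TPM with the R package tximport (version 1.12.3; R itself was 3.6.1), and deposited log2 expression values of 16486 genes in 8 libraries. The labels' processing notes name the mm10 build, while the sources used here do not say which of these units the log2 values were made from, nor any further scaling or filter. The table holds no counts, so the reads behind a value are unknown. The spread in the CT test comes from the CT duplicates, and that in the fits over 8 libraries (4 residual degrees of freedom) also from how the subset difference varied between mouse groups.

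Tests used limma 3.58.1 (lmFit, eBayes with a trend) in R 4.3.3 on the deposited log2 values of all genes without further normalization, with Benjamini-Hochberg adjustment over all genes. Calls required both an adjusted p below 0.01 and an absolute log2FC above 1. Ly6Chigh was tested against Ly6Clow MCs in CT mice (4 libraries) and over mouse groups (8 libraries, mouse group as covariate), and mouse groups were tested with subset as covariate. Where 1 library stood on a side, log2 differences were given without a test. The fits were tested on simulated data. Alternatives were a filter at a mean log2 value of 1, adding 1 on the linear scale, quantile normalization, eBayes without trend and an adjusted p of 0.05. Further ones were the replicate number as block, copies summed (Ms4a4b with Ms4a4c, and Ms4a6b with Ms4a6c and Ms4a6d), and leaving out libraries. Summed linear values of a list are sums of 2 raised to the log2 values.

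Genes named are the 9 members, 15 other family genes, 8 partner genes, the 3 genes most similar to each member (the closest is printed for 7 members), and of marker lists the 3 most abundant; the rest of the lists is given by counts. Members and lists were chosen with earlier results of these data known. Promoters were aligned with Biopython 1.88 (local, match 1, mismatch -1, gap opening -2, gap extension -1). The macrophage marker list (6 genes) had 0 calls between the subsets in limma over mouse groups. Some single genes that these rules include are not reported here.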

Additional observations from a re-analysis of the deposited data

Results flagged for a closer look

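In 4 cases a diabetic library lay outside both CT libraries in opposite directions in the 2 subsets. These differences were not tested for the single model, and 29.2% of all genes in T1DM and 27.9% in T2DM met the same condition. Ms4a6d in T2DM was 0.58 above the CT mean in Ly6Chigh and had a difference of -0.37 in Ly6Clow MCs. Ms4a4a in T2DM had differences of 0.22 and -0.42, Ms4a6c in T2DM of 0.05 and -0.15, and Ms4a6b in T1DM of 0.21 and -0.11, in Ly6Chigh and Ly6Clow MCs respectively.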

How the results depend on the processing

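The count of 7 genes called higher in Ly6Chigh MCs over mouse groups was 7 under every alternative counted, and without the T2DM libraries Ms4a4b was called lower beside them. The fit with copies summed was not counted, because the copies have no separate values in it. The counts of 0 genes called between mouse groups, and for the difference of subset effects, stayed at 0 under each alternative counted. In CT mice alone the count of 4 became 8 (7 higher and 1 lower) at an adjusted p of 0.05, 0 with eBayes without trend, 0 to 0 over leaving out each CT library, and 0 with the replicate number as block. The block leaves fewer residual degrees of freedom, and the replicate numbers do not pair the samples, since the CT replicate differences of the 2 subsets correlated at 0.00892 over genes. All genes called in CT numbered 581, 1089 with the low-value filter, and 0 in the fits without trend and with the block, where 5810 and 5513 genes had an unadjusted p below 0.05.

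The number of genes more than 1 from CT in T2DM Ly6Clow MCs went from 2 to 1 after adding 1 on the linear scale, and over leaving out CT libraries it was 1 to 2; in T1DM Ly6Clow MCs it was 0 to 1. Ms4a4b turned from -0.89 to 1.15 (adjusted p 0.000903) when summed with Ms4a4c, as the construction of the sum implies when the larger term in Ly6Chigh MCs is Ms4a4c. With 1 library per diabetic group and subset, mouse-to-mouse spread in a single group could not be measured.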
